A study of Mus musculus with 12 samples.

Results

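The genes described here are Ankrd63, Ccdc177, Fxyd7, Lrrtm1, Rskr and Sphk2, followed through a mouse model of epilepsy that starts from a single prolonged seizure. They were selected on their measured values in these arrays, as genes with lower values after kainic acid (KA), and were named together as neuronal genes with lasting falls. These 6 genes, of 17097 genes with a symbol on the array, are read by 9 of its 45037 probe sets, and every one of the 9 is reported. The comparisons of KA with control arrays were used to choose the genes, so those differences are given as a description, with no test. The name holds only in part. In 3 of the 6 genes (Ankrd63, Ccdc177 and Fxyd7) all KA arrays lay below all control arrays at both times. Lrrtm1 and Rskr had separate groups only at 14 d, and Sphk2 only at 8 h. The hippocampus was measured whole, so the arrays do not show which cells hold the RNA, and fewer cells of a type and less RNA per cell cannot be told apart.

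KA is an agonist of kainate-type glutamate receptors, and an injection into the amygdala sets off status epilepticus, which injures part of the hippocampus on the same side and is followed by spontaneous seizures. In the days that follow, nerve cells are lost in places, glia become reactive and the surviving cells change the genes they express. Fxyd7 encodes a small membrane protein that binds the Na,K-ATPase, the pump that restores ion gradients after firing. Lrrtm1 encodes a postsynaptic protein that binds neurexins across excitatory synapses, and Sphk2 encodes one of the kinases that make sphingosine 1-phosphate, a lipid signal. Rskr encodes a kinase related to the ribosomal protein S6 kinases, while Ankrd63 (ankyrin repeats) and Ccdc177 (a coiled coil) are known mainly from their sequence.

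Mice received 0.3 µg KA in 0.2 µl phosphate-buffered saline in the amygdala, and controls received 0.2 µl of that vehicle. At 40 min after KA, lorazepam, a benzodiazepine used to stop seizures, was injected intraperitoneally at 6 mg/kg, and whether controls were given it is not stated. The injected side's hippocampus was collected at 8 h or 14 d, which gave 4 groups of 3 arrays: control 8 h, KA 8 h, control 14 d and KA 14 d. Strain, age and sex are not given in the labels, and neither is whether an array holds 1 animal, so the p-values cover the spread among these samples and nothing wider. A separate time entry reads 8 to 10 h for the control arrays titled 8 h and 11 to 13 h for the KA arrays titled 8 h. Should that entry be right, collection time and KA cannot be told apart in those arrays.

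Values are log2 intensities, on which a difference of 1 is a doubling of signal, and levels are compared only within a probe set. Array medians lay between 4.9 and 4.95, arrays of a group correlated at 0.989 to 0.997, and the number of arrays, 3 a group, limits the precision. The mean of GC-rich background probe sets was 4.34 ± 0.16 in the 8 h controls, 4.28 ± 0.18 in KA 8 h, 4.34 ± 0.14 in the 14 d controls and 4.53 ± 0.23 in KA 14 d (SD, n = 3 each). The 3 KA 8 h arrays stood apart in sex-linked genes. Xist, transcribed from the inactive X chromosome, read 7.39 to 8.71 there and 4.19 to 4.67 on the other 9 arrays. The Y-linked Eif2s3y read 5.57 to 6.83 there against 7.46 to 8.09 elsewhere, and Kdm5d 5.07 to 6.10 against 6.43 to 6.95. The Y-linked Uty, which is dim, overlapped, at 4.14 to 4.61 there and 4.35 to 4.82 elsewhere. This difference and KA cannot be told apart at 8 h, which holds for every 8 h value that follows.

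Among all 13853 genes tested, the 3 KA arrays lay below the 3 controls without overlap in 18.9% at 8 h, in 8.5% at 14 d and in 3.88% at both times. Of the 6 chosen genes this was so in 4, 5 and 3, counts that follow from the way they were chosen. Genes called by limma in either direction, at an adjusted p under 0.05, made up 17.5% at 8 h (1097 rose and 1323 fell) and 2.56% at 14 d (275 rose and 79 fell). The median log2 change of the 6 genes was -0.80 at 8 h and -0.78 at 14 d, beside -0.02 and -0.01 over all genes tested. Rskr reached background in KA 14 d, and with Rskr at its bound the 14 d median was -0.76. The probe set used for each of the 6 passed the filter on dim genes, and 1 of the 9 probe sets, the second one for Rskr, did not.

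**Figure D1:**
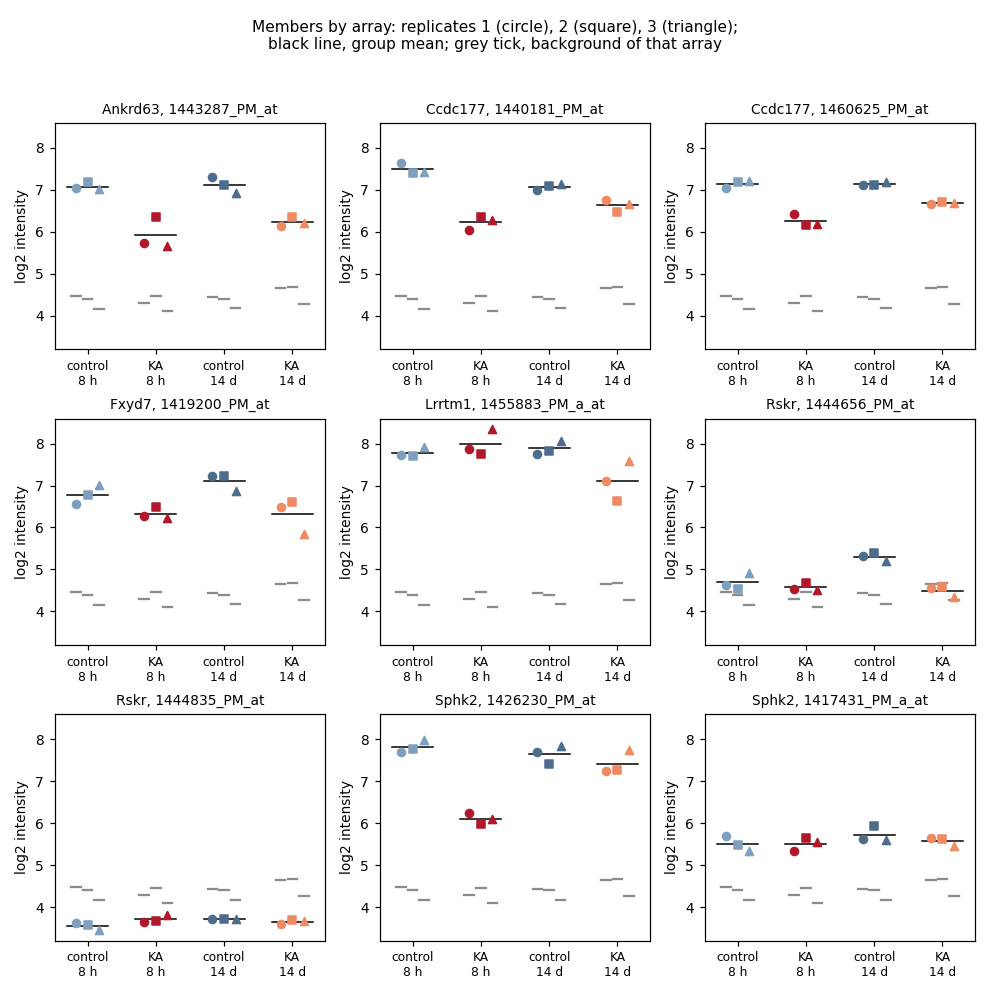
Log2 intensity of each of the 9 probe sets (vertical axis) on each array, with the 4 groups along the horizontal axis. Symbols give the replicate, black lines the group mean and grey ticks the background of that array. The KA 8 h points of Sphk2 probe set 1426230_PM_at lie between 5.99 and 6.24, below every other array, while its second probe set stays between 5.34 and 5.94 in all groups.

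Ankrd63 was lower at both times. The 8 h controls read 7.03, 7.18 and 7.02 (log2), and the KA 8 h arrays read 5.73, 6.36 and 5.67. The 14 d controls read 7.30, 7.11 and 6.93, and the KA 14 d arrays 6.14, 6.34 and 6.21. Every KA array was below every control array at both times, and KA 8 h replicate 2 stood 0.66 below the lowest control of its time. The log2 change was -1.15 (SE 0.15, n = 3 a group) at 8 h, a 2.23-fold lower level, and -0.89 (SE 0.15) at 14 d, 1.85-fold lower. Counted from the lowest of 13853 genes, these were positions 11 and 2. The change at 14 d was 0.27 (SE 0.21) less negative than at 8 h, little more than its error. Its group means in order were 7.11 in the 14 d controls, 7.08 in the 8 h controls, 6.23 in KA 14 d and 5.92 in KA 8 h, and neither the control groups nor the KA groups were separate from each other.

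Ankrd63 lies on the minus strand of chromosome 2 (GRCm38.p6, chr2:118699103-118703963), between Pak6 and Plcb2, which it does not overlap. Pak6, a p21-activated kinase, rose at 8 h by 0.59 (limma adjusted p = 0.00046), the opposite direction from its neighbour, and read 0.05 higher at 14 d (limma adjusted p = 0.90). Plcb2 differed by 0.03 and 0.05 and was not called at either time. RefSeq's promoter table, with 250 bases before and 50 after each start, held 4 of the 6 genes in 5 windows, with Sphk2 in 2 of them. The Ankrd63 window is shown because it pairs a TATA box near the start with GC boxes in a gene that was low at both times. Capitals here and in the sequences further on mark 3 motifs: the TATA box as TATAAA, the GC box as GGGCGG and the cyclic AMP response element as TGACGTCA, searched on both strands.

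Ankrd63, chr2:118703914-118704213, minus strand: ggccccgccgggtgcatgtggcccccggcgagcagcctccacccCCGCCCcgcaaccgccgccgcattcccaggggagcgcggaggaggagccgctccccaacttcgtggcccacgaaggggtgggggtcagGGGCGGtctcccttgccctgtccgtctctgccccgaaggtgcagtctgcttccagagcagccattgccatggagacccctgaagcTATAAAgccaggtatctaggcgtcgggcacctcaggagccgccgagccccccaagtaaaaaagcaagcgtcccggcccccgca

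The window holds TATAAA at position -33 from the start, which 13.6% of all 32851 promoter windows have at any position, and 2 GC boxes, which 35.7% have at least once. Its bases are 69.7% G or C, beside a median of 52.7% over all windows. No response element for cyclic AMP was found in these letters.

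Ccdc177 has 2 probe sets, and both were lower at both times. Probe set 1440181_PM_at, the one used for the gene, read 7.64, 7.41 and 7.43 in the 8 h controls and 6.03, 6.34 and 6.29 in KA 8 h. At 14 d it read 6.99, 7.08 and 7.14 in the controls and 6.76, 6.46 and 6.67 in KA. The groups did not overlap at either time, and the gap between them narrowed from 1.07 at 8 h to 0.23 at 14 d. The log2 change was -1.27 (SE 0.11) at 8 h, 2.42-fold lower and position 6 from the lowest, and -0.44 (SE 0.11) at 14 d, 1.36-fold lower and position 69. The change at 14 d was less negative than that at 8 h by 0.83 (SE 0.15).

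Probe set 1460625_PM_at of Ccdc177 read 7.03, 7.18 and 7.21 in the 8 h controls against 6.41, 6.17 and 6.18 in KA 8 h. At 14 d it read 7.12, 7.12 and 7.19 in the controls against 6.67, 6.70 and 6.68 in KA. No KA array overlapped its controls, and the KA 14 d arrays of this probe set had an SD of 0.016. Its log2 changes were -0.88 (SE 0.09) and -0.46 (SE 0.09), or 1.84-fold and 1.37-fold lower. The probe sets gave nearly the same change at 14 d and differed more at 8 h. They also differed in the controls. The 14 d controls were 0.42 (SE 0.11) below the 8 h controls at the first, with no overlap, and 0.01 above them at the second. Ccdc177 lies at chr12:80755447-80760715 (GRCm38.p6), and the annotation has no other gene within 5000 bases of it.

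Fxyd7 was lower at both times, with a narrow gap at 8 h. The 8 h controls read 6.56, 6.78 and 7.01, and KA 8 h read 6.27, 6.50 and 6.23. The 14 d controls read 7.22, 7.23 and 6.87, and KA 14 d read 6.50, 6.62 and 5.84. The highest KA array stood 0.07 below the lowest control at 8 h and 0.25 below it at 14 d, where KA 14 d replicate 3 was the lowest array of all. The log2 change was -0.45 (SE 0.17) at 8 h, 1.37-fold lower and position 516, and -0.78 (SE 0.17) at 14 d, 1.72-fold lower and position 4. With 1 array left out at a time the 14 d change ranged from -0.93 to -0.55. The changes at 8 h and 14 d differed by -0.33 (SE 0.24).

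Fxyd7 lies at chr7:31042515-31051454 (GRCm38.p6), inside the long non-coding RNA gene Gm38984 and between Fxyd5 and Fxyd1. Fxyd5, also known as dysadherin, rose at 8 h from 6.01 to 6.38 in the controls to 6.61 to 6.69 in KA, by 0.45 (SE 0.11, limma adjusted p = 0.010). Without control 8 h replicate 1 its limma adjusted p was 0.056. Fxyd1, or phospholemman, rose at 14 d from 9.19 to 9.43 in the controls to 9.82 to 10 in KA, by 0.61 (SE 0.13, limma adjusted p = 0.018). Each of these rises was opposite in direction from Fxyd7 at the same time. The call for Fxyd1 was lost without control 14 d replicate 2 (limma adjusted p = 0.082), control 14 d replicate 3 (0.097) or KA 14 d replicate 1 (0.096).

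Lrrtm1 was lower at 14 d only. It read 7.74, 7.70 and 7.91 in the 8 h controls and 7.88, 7.75 and 8.34 in KA 8 h. It read 7.76, 7.83 and 8.06 in the 14 d controls and 7.11, 6.63 and 7.59 in KA 14 d. The groups overlapped at 8 h and did not at 14 d, where the KA arrays ran from 6.63 to 7.59, the widest range among the 9 probe sets in that group. The log2 change was 0.21 (SE 0.19) at 8 h and -0.77 (SE 0.19) at 14 d, 1.71-fold lower and position 5 from the lowest. Between the times it differed by -0.98 (SE 0.27). Leaving out 1 array at a time gave -1.01 to -0.53 at 14 d.

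Lrrtm1 lies on the plus strand at chr6:77229210-77259915 (GRCm38.p6), inside the gene Ctnna2 on the minus strand, which encodes the neural alpha-catenin. The labels do not say which strand the amplified cDNA keeps, so RNA from Ctnna2 could not be told apart where a probe lies in both. Ctnna2's own probe set changed by -0.18 at 8 h and -0.34 at 14 d and was not called (limma adjusted p = 0.52 and 0.38). The Lrrtm1 window of the promoter table lies inside the gene and not at its annotated start, chr6:77229210. It is shown as the GC-poor counterpart of the Ankrd63 window, from a gene that was not lower at 8 h.

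Lrrtm1, chr6:77242227-77242526, plus strand: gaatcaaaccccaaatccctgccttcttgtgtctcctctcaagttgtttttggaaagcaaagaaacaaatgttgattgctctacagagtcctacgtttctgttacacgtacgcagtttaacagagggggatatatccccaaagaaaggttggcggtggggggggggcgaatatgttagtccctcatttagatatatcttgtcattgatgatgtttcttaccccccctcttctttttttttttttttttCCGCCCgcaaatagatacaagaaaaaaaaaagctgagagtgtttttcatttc

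It holds 1 GC box, at position -2, and no TATAAA, and 40.7% of its bases are G or C. The window of Rskr, the other gene with separate groups at 14 d alone, had 45.3%. The windows of Ankrd63 and Sphk2, whose values were lower at 8 h (for Sphk2 at only 1 of its probe sets), had 65.3% to 69.7%. With 4 genes, with Rskr near background at 8 h and with the Lrrtm1 window inside its gene, this is a description, and no test was made.

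Rskr was dim, and its values at 14 d reached the background. Probe set 1444656_PM_at read 4.63, 4.54 and 4.91 in the 8 h controls and 4.53, 4.68 and 4.52 in KA 8 h. It read 5.33, 5.38 and 5.21 in the 14 d controls and 4.56, 4.58 and 4.34 in KA 14 d. The 8 h groups overlapped, the 14 d groups stood 0.63 apart, and only 1 of the 3 KA 14 d arrays was above its own background. At 8 h, control replicates 1 and 2 lay close to their backgrounds of 4.47 and 4.40, which left little room to measure a fall. The log2 change was -0.12 (SE 0.10) at 8 h and -0.81 (SE 0.10) at 14 d. Since KA 14 d reached the background, that size is not a measured one, no position is given for it, and the level at 14 d was at least 1.68-fold lower. In that bound the background takes the place of a KA value below it.

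The control groups of Rskr also stood apart. The 14 d controls were above the 8 h controls by 0.61 (SE 0.10) with no overlap, position 13821 of 13853 counted from the lowest. As 2 of the 3 KA 14 d arrays lay below their background, a lower level there could not be measured. The choice of Rskr used these control arrays, so the difference between controls is given with no test. The second probe set, 1444835_PM_at, was below background on all 12 arrays, between 3.45 and 3.81, and holds no measured level. Rskr lies at chr11:78290712-78296805 (GRCm38.p6) and overlaps the non-coding gene Gm3948 on the other strand by 3963 bases. The Gm3948 probe set was also below background on every array.

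Sphk2 was lower at 8 h at one of its probe sets and at neither at 14 d. Probe set 1426230_PM_at read 7.71, 7.78 and 7.99 in the 8 h controls and 6.24, 5.99 and 6.10 in KA 8 h. It read 7.70, 7.42 and 7.85 in the 14 d controls and 7.25, 7.28 and 7.75 in KA 14 d. The 8 h groups stood 1.47 apart, the widest gap of any of the 9 probe sets, and the 14 d groups overlapped. The log2 change was -1.72 (SE 0.14) at 8 h, 3.29-fold lower and position 2 from the lowest of all genes tested, and -0.23 (SE 0.14) at 14 d. The change at 14 d was less negative by 1.48 (SE 0.19).

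The other Sphk2 probe set, 1417431_PM_a_at, read 5.69, 5.49 and 5.34 in the 8 h controls and 5.35, 5.65 and 5.55 in KA 8 h. It read 5.63, 5.94 and 5.60 in the 14 d controls and 5.64, 5.63 and 5.46 in KA 14 d. The groups overlapped at both times, with log2 changes of 0.01 (SE 0.12) and -0.15 (SE 0.12), and all arrays were above background. The lower signal of the first probe set at 8 h was not seen at the second, and with the mean of the probe sets the 8 h change was -0.85. Which transcripts each probe set reads was not tested.

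Sphk2 lies on the minus strand at chr7:45709463-45718002 (GRCm38.p6). It overlaps Dbp, a circadian transcription factor gene on the plus strand, by 741 bases, and Rpl18, a ribosomal protein gene that is not analysed here, by 2536 bases. Dbp fell at 8 h by 0.97 (SE 0.15, limma adjusted p = 0.00027), from 5.67 to 6.05 in the controls to 4.69 to 4.97 in KA. At 14 d Dbp read 0.23 lower, with overlapping groups (limma adjusted p = 0.59). Without the strand of the cDNA, RNA from Sphk2 and Dbp could not be told apart where they overlap. Car11, the next gene beyond Dbp, fell by 0.44 at 8 h (limma adjusted p = 0.0024) and by 0.40 at 14 d (limma adjusted p = 0.020). Its 14 d call was lost without control 14 d replicate 1, 2 or 3 or KA 14 d replicate 1 (limma adjusted p = 0.051 to 0.097). The start of Sphk2 is shown for both of its windows, since its transcripts begin at more than 1 place and its probe sets disagree.

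Sphk2 window 1, chr7:45717953-45718252, minus strand: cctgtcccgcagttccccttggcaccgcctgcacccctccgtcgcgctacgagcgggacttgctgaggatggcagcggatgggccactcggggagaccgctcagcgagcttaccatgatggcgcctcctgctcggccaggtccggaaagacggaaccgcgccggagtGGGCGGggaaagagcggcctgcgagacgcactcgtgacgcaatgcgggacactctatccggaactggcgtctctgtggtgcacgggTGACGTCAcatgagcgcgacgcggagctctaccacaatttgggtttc
Sphk2 window 2, chr7:45715158-45715457, minus strand: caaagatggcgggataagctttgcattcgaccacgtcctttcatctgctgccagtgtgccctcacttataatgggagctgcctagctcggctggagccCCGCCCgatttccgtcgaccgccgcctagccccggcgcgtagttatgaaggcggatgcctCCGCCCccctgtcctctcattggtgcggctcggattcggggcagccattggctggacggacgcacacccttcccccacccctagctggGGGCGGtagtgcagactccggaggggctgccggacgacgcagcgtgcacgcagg

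Window 1 holds a full TGACGTCA starting at position 3, a motif found in 1.79% of all windows, besides 1 GC box. Window 2 lacks it and holds 3 GC boxes and 2 CCAAT boxes, of which at least 1 stands in 37.4% of all windows. Both windows hold no TATAAA. Other motifs searched were TGACG (in 20.8% of all windows), TGANTCA (AP-1, 7.81%), TTANNTAA (the D-box of Dbp, Hlf and Tef, 6%), CACGTG (the E-box, 7.15%) and GCGNGGGCG (Egr, 5.55%). Of the 5 windows, 1 held TGACG (window 1 of Sphk2), 1 held TTANNTAA (Rskr, at position -11) and none held the others. A match in these letters is not evidence that a factor binds.

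**Figure D2:**
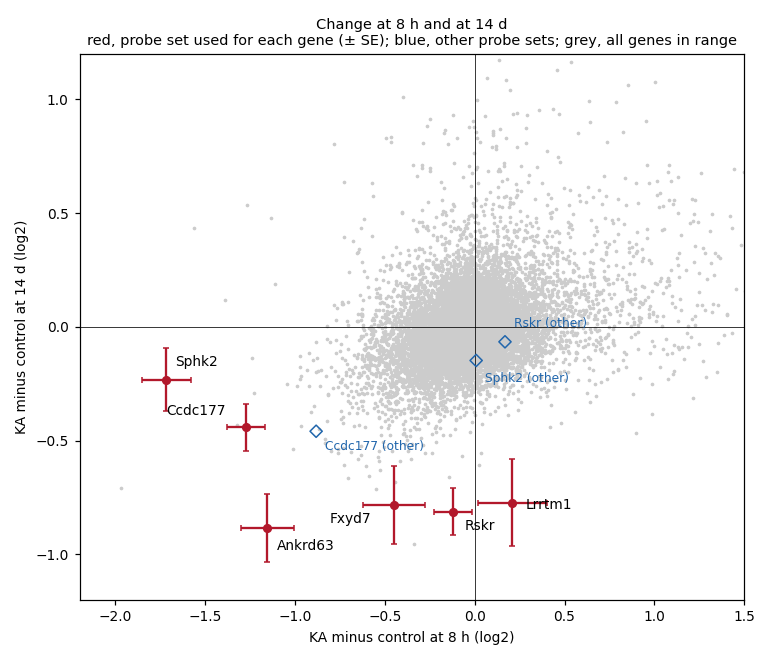
Log2 change at 8 h (horizontal axis) against that at 14 d (vertical axis), both KA minus control. Red points are the 6 genes with SE bars, blue diamonds the other probe sets and grey dots all genes tested within the axes. Ankrd63 lies low on both axes (-1.15 and -0.89) and Sphk2 low at 8 h (-1.72 and -0.23). Lrrtm1 and Rskr lie low at 14 d only. The 14 d value of Rskr is limited by the background, and some of its 8 h controls lay close to background, which left little room for a fall.

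Likeness between patterns was measured as the root mean square difference of log2 values over the 12 arrays, each gene centred on its own mean. Fxyd7 and Rskr were the closest pair of the 6, at 0.19, with Ankrd63 and Ccdc177 next at 0.28. Lrrtm1 and Sphk2 were the farthest apart, at 0.88. A flat gene would differ from Ankrd63 by 0.55, Ccdc177 by 0.49, Fxyd7 by 0.40, Lrrtm1 by 0.42, Rskr by 0.34 and Sphk2 by 0.70.

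Over all genes tested, the pattern nearest to Ankrd63 was that of Hlf (0.24), a transcription factor that binds the D-box, followed by Kif26b (0.27) and Rasgrf2 (0.27). Kif26b, an atypical kinesin, was nearest to Ccdc177 (0.12), followed by Sowaha (0.15) and the forkhead factor gene Foxk1 (0.21). Hlf was also the gene nearest to Fxyd7 (0.15), before Aifm3 (0.16) and Cldn22 (0.20). Hlf read 8.96 to 9.17 in the 8 h controls and 8.23 to 8.56 in KA 8 h, and 9.22 to 9.38 in the 14 d controls and 8.27 to 8.86 in KA 14 d. It was lower in all KA arrays at both times, by 0.71 at 8 h and 0.67 at 14 d.

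For Lrrtm1 the nearest genes were Kctd4 (0.15), Plppr5 (0.18) and Pou3f1 (0.21), a transcription factor gene on the CA1 marker list, with 14 d changes of -0.61, -0.39 and -0.36. For Rskr they were Psrc1 (0.17), Runx1t1 (0.19) and Parm1 (0.19), each 0.27 to 0.32 higher in the 14 d than in the 8 h controls. For Sphk2 they were Arhgap12 (0.23), the serotonin receptor gene Htr1a (0.30) and Fam163b (0.31), with 8 h changes of -1.23, -1.32 and -1.11. These genes were picked for likeness to the 6, so their values are a description.

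**Figure D3:**
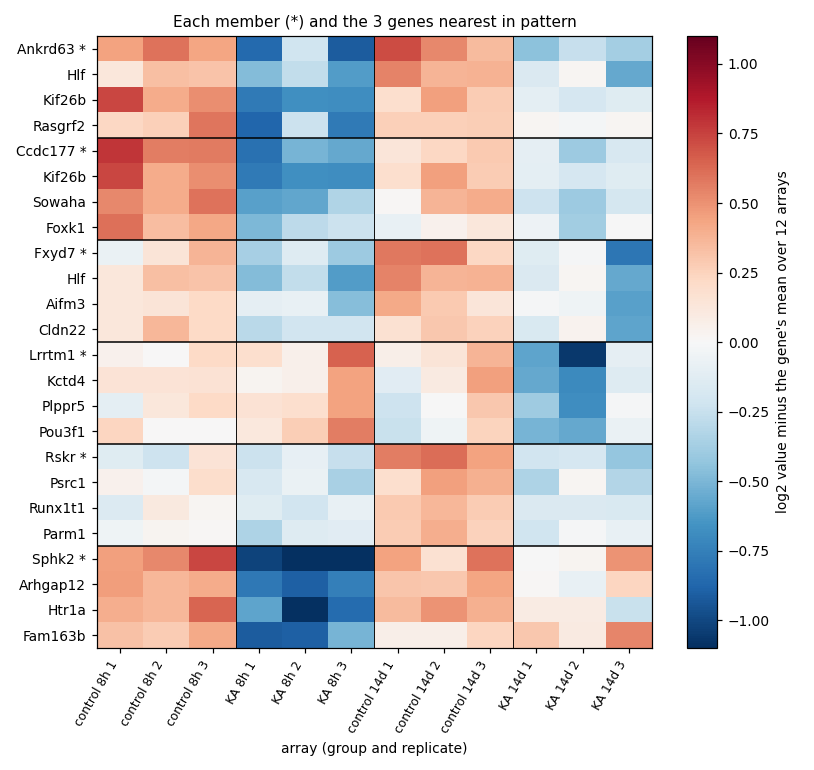
Log2 value minus the gene's mean over 12 arrays (colour scale) for each of the 6 genes, marked with an asterisk, and the 3 genes nearest to it in pattern, with arrays along the horizontal axis. The rows of Ankrd63, Ccdc177 and Sphk2 themselves are blue in the KA 8 h columns, and the row of Lrrtm1 itself is below its mean only in the KA 14 d columns.

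The relatives of the 6 genes were read from 4 lists, chosen with results of these data known. Of 9 Na,K-ATPase and FXYD genes measured beside Fxyd7, 1 rose and 0 fell at 8 h (Fxyd5), and 2 rose and 0 fell at 14 d. The rises at 14 d were Fxyd1 and Atp1b2, a beta subunit of the pump that is abundant in astrocytes, by 0.40 (SE 0.09, limma adjusted p = 0.023). The Atp1b2 call was lost without control 14 d replicate 1, 2 or 3 or KA 14 d replicate 1 or 3 (limma adjusted p = 0.052 to 0.12). Atp1b1, the beta subunit typical of nerve cells, differed by -0.13 and -0.05 and Fxyd6 by -0.21 and -0.06, with none called. The list's median change was -0.03 at 8 h and 0.04 at 14 d.

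Of 27 LRRTM genes and other synaptic adhesion organisers measured beside Lrrtm1, 3 rose and 4 fell at 8 h, and 0 were called at 14 d or between the controls by limma. At 14 d, 3 of the 27 had an unadjusted p under 0.05 and between the controls 8 did. Lrrtm2, Lrrtm3 and Lrrtm4, the closest relatives of Lrrtm1, were not called at either time in the fit without the replicate block. Lrrtm2 differed by 0.16 and 0.17 at the probe set used and by 0.35 to 0.41 at 8 h at its other probe sets. Lrrtm3 differed by -0.02 and 0.08, the first of which turned positive (0.02) with cyclic loess normalization, and Lrrtm4 by -0.39 and -0.45 (limma adjusted p = 0.28 and 0.44). Lrrtm4 was called lower at 8 h with the replicate number as a block and without the third array of each group (limma adjusted p = 0.049 in both). At 14 d Lrrtm4 was called lower with array weights, which did not converge (limma adjusted p = 0.038). The rises at 8 h were Flrt2 (0.67, limma adjusted p = 0.00012), the latrophilin gene Adgrl3 (0.85, 0.00020) and Lrrc4c (0.29, 0.026). Those that fell most clearly were the receptor phosphatases Ptprd (-0.59, limma adjusted p = 0.00067) and Ptprs (-0.45, 0.0051) and Slitrk1 (-0.33, 0.021). Lrrc4c and Slitrk1 lost their calls without control 8 h replicate 1 (limma adjusted p = 0.11 and 0.098), control 8 h replicate 2 (0.060 and 0.071) or KA 8 h replicate 3 (0.11 and 0.083). Slitrk1 also lost it without KA 8 h replicate 2 (limma adjusted p = 0.051).

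Sphk1, the other sphingosine kinase, rose at 8 h, the opposite direction from Sphk2 probe set 1426230_PM_at (the other Sphk2 probe set changed by 0.01). It read 5.50 to 5.61 in the 8 h controls and 6.85 to 7.09 in KA 8 h, a rise of 1.45 (SE 0.10, limma adjusted p = 5.85e-08), and at 14 d 0.17 higher (limma adjusted p = 0.52). Its second probe set read 0.26 higher at 8 h. Of 29 genes of sphingosine 1-phosphate and ceramide metabolism measured beside Sphk2, 3 rose and 3 fell at 8 h, 2 rose and 0 fell at 14 d, and 1 fell between the controls. With the replicate number as a block, 6 rose and 5 fell at 8 h. Sgpl1, the lyase that degrades sphingosine 1-phosphate, rose by 0.52 at 8 h and 0.46 at 14 d (limma adjusted p = 0.00055 and 0.0067). The receptor gene S1pr3 rose by 0.47 and 0.93 (limma adjusted p = 0.0073 and 0.00010). Falls at 8 h were those of the lipid phosphatase genes Plpp3 (-0.51, limma adjusted p = 0.00091) and Plpp2 (-0.32, 0.045) and the ceramide synthase gene Cers4 (-0.37, 0.014). The Cers4 call was lost without KA 8 h replicate 3 (limma adjusted p = 0.064). The Plpp2 call was lost in 9 of the 12 fits with an array left out, and with the mean of its probe sets the change was -0.10 (limma adjusted p = 0.38). S1pr1 differed by -0.23 and 0.11 and was not called in the fit without the replicate block. At 8 h it was called lower with the block (limma adjusted p = 0.044) and with array weights, which did not converge (limma adjusted p = 0.041). Spns2, an exporter of sphingosine 1-phosphate, was lower in the 14 d than in the 8 h controls by 0.45, a call lost without control 14 d replicate 1 or 2 (limma adjusted p = 0.071 and 0.051).

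Of 11 S6, RSK and SGK family kinase genes measured beside Rskr, 1 rose and 1 fell at 8 h and 0 were called at 14 d by limma, where 1 had an unadjusted p under 0.05. Rps6ka3, which encodes the kinase RSK2, rose by 1.06 at 8 h (SE 0.09, limma adjusted p = 8.14e-07), from 5.73 to 5.83 in the controls to 6.66 to 6.93 in KA. Its other probe sets were 0.91 and 0.98 higher. Rps6ka5 fell by 0.46 (limma adjusted p = 0.022), a call lost without control 8 h replicate 1 or 2 or KA 8 h replicate 1 or 2 (limma adjusted p = 0.061 to 0.084). The Rps6ka5 mean in KA 8 h, 4.01, lay below that group's mean background of 4.28, so the size of this fall is not a measured one. Sgk1 differed by 0.55 at 8 h (limma adjusted p = 0.062) and by 0.24 at 14 d. Its limma adjusted p at 8 h was 0.0087 under the replicate block. Over the alternatives it ran from 0.0037, with the array weights that did not converge, to 0.22. Rps6kb1 is not analysed here.

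Among the controls, where 1.8% of all genes were called, this kinase list had 3 genes higher and 2 lower at 14 d than at 8 h. Sgk1, a kinase induced by glucocorticoids, was lower by 1.57 and Sgk3 by 1.15 (limma adjusted p = 0.00085 and 0.0010). Akt2 was higher by 0.59, Akt1 by 0.51 and Rps6kl1 by 0.42 (limma adjusted p = 0.0072, 0.022 and 0.022). Akt1 and Rps6kl1 lost their calls without control 8 h replicate 1, control 14 d replicate 1, 2 or 3, and in turn without control 8 h replicate 3 for Akt1 and 2 for Rps6kl1 (limma adjusted p = 0.058 to 0.13). Akt1 was 0.18 higher with the mean of its probe sets (limma adjusted p = 0.22) and 0.48 with cyclic loess (limma adjusted p = 0.062). Rskr read 0.61 higher in the 14 d than in the 8 h controls, while these relatives differed between the controls in both directions. The change itself differed between 8 h and 14 d in 5.52% of all genes, and in 7 genes of the 4 lists: Fxyd1, Flrt2, Adgrl3, Sphk1, Plpp3, Cers1 and Rps6ka3.

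**Figure D4:**
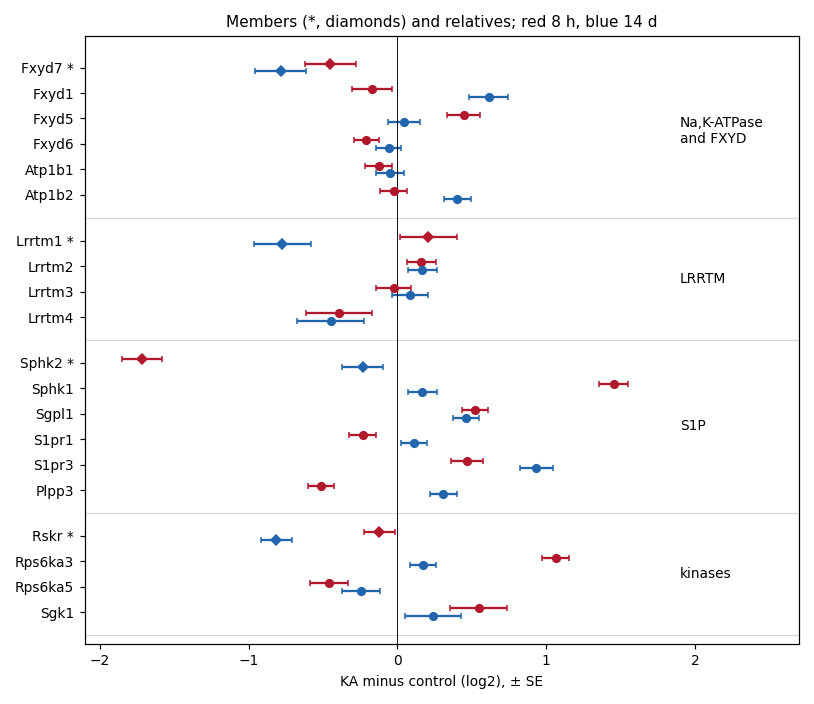
Log2 change, KA minus control, with SE bars (horizontal axis) of the genes with asterisks and of their relatives (vertical axis), red at 8 h and blue at 14 d. Sphk2 (-1.72) and Sphk1 (1.45) lie on opposite sides at 8 h, and Fxyd7 (-0.78) and Fxyd1 (0.61) at 14 d. Only the probe set used for each gene is drawn, and the other Sphk2 probe set changed by 0.01 at 8 h.

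Cell type markers moved beside these genes, and their part in the results was not tested. Of 15 pan-neuronal markers, 0 rose and 3 fell at 8 h (Tubb3, Rbfox3 and Thy1), and 0 rose and 1 fell at 14 d (Syt1, by 0.34, limma adjusted p = 0.021). Their mean log2 level was 9.39 to 9.49 in the 8 h controls and 9.29 to 9.43 in KA 8 h, and 9.49 to 9.56 in the 14 d controls and 9.27 to 9.59 in KA 14 d. The groups overlapped at both times, and the median change of the list was -0.05 and -0.08. The medians of the 6 genes, -0.80 and -0.78, follow from their choice for falls, so the lists cannot be compared by size. With the replicate number as a block, 1 of the 15 rose and 4 fell at 8 h. Intensities have no 0, and all 15 passed the filter.

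Of 6 CA1 pyramidal cell markers, 1 fell at 8 h and 1 at 14 d. The list's level at 14 d was 7.76 to 7.86 in the controls and 7.39 to 7.54 in KA, with no overlap. At 8 h it overlapped, at 7.61 to 7.80 in the controls and 7.45 to 7.70 in KA. The gene that fell at 14 d was Fibcd1, by 0.96 (limma adjusted p = 0.00013), the only gene tested whose change at 14 d was more negative than that of Ankrd63. Of 7 CA3 markers 2 rose at 8 h and 0 were called at 14 d, while 9 markers of dentate granule cells held 4 that rose and 3 that fell at 8 h, then 3 and 1 at 14 d.

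Of 9 excitatory neuron markers, 0 rose and 2 fell at 8 h (Neurod6 and Grm5), 4 fell with the replicate number as a block, and 0 were called at 14 d by limma, where 3 had an unadjusted p under 0.05. Of 16 interneuron markers 2 rose and 4 fell at 8 h, and 1 rose and 1 fell at 14 d. Pvalb, a calcium-binding protein of fast-spiking interneurons, fell by 0.55 and 0.71 (limma adjusted p = 0.0035 and 0.0020). Npy rose at both times, by 1.097 at 8 h and 1.333 at 14 d (limma adjusted p = 0.0021 and 0.00195). The other rise was that of Sst at 8 h, by 0.72 (limma adjusted p = 0.00014). Of 7 markers of cortex and amygdala 2 rose and 2 fell at 8 h (4 fell with the block), and 0 rose and 1 fell at 14 d. The list's level at 14 d was 6.88 to 6.90 in the controls and 6.69 to 6.75 in KA, with no overlap. Lamp5 fell at both times, by 0.61 at each (limma adjusted p = 0.00097 and 0.0040). At 8 h Rasgrf2 also fell, by 0.99 (limma adjusted p = 0.00012). Fezf2 rose at 8 h by 1.22 and Rorb by 0.39 (limma adjusted p = 1.9e-05 and 0.024).

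Of 11 microglial markers 10 rose and 0 fell at 14 d, with a level of 6.99 to 7.15 in the controls and 8.30 to 8.43 in KA. Of 12 astrocyte markers 5 rose and 0 fell at 14 d, from 8.10 to 8.21 in the controls to 8.47 to 8.73 in KA. At 8 h microglial levels overlapped, at 6.68 to 6.83 in the controls and 6.65 to 6.77 in KA, while 3 of the 11 markers rose and 3 fell. Among them P2ry12, a purine receptor of resting microglia, fell by 1.56 (limma adjusted p = 7.21e-07) and Fcrls rose by 0.80 (limma adjusted p = 2.92e-05). Of the 12 astrocyte markers 2 rose and 1 fell at 8 h, and their level of 8.14 to 8.18 in the controls did not overlap that of 8.27 to 8.33 in KA. Of 11 oligodendrocyte markers 5 fell at 8 h, from 7.80 to 7.92 in the controls to 7.51 to 7.73 in KA.

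**Figure D5:**
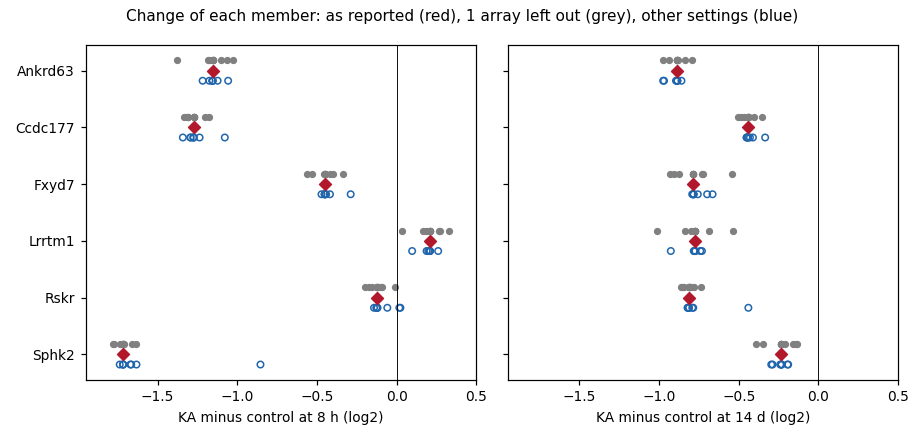
Log2 change, KA minus control (horizontal axes, 8 h and 14 d), of each of the 6 genes as reported (red), with 1 array left out (grey) and under other settings (blue). Sphk2 at 8 h moves from -1.72 to -0.85 with the mean of its probe sets, and the 14 d values of all 6 genes stay below 0.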

How the data were processed

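The deposited values are log2 intensities of 12 Affymetrix arrays, which the authors processed with RMA (affy), per the submitters' processing notes, with no version given. The table does not state its scale. It was read as log2 from its range of 2.63 to 13.2 and its near-equal array medians. Per the labels, amplification started from 5 ng of RNA and ran for 22 cycles, and 8 µg of the product was fragmented and labelled. Groups were taken from the sample titles, whose word Input was not interpreted.

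Of 45037 probe sets that are not array controls, 28898 carried 1 gene symbol in the probe annotation. Each gene was represented by its probe set with the highest mean, and the 13853 genes above the 30th percentile of an array on at least 3 arrays were tested. A model with 4 group means was fitted to the 12 arrays (limma 3.58.1 in R 4.3.3, eBayes, 8 residual degrees of freedom), after the script was tested on simulated data. Tests were two-sided with Benjamini-Hochberg adjustment over all 13853 genes. The members and the gene lists were chosen with earlier results of these data known.

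Genes were named by this rule: the 6 genes with every probe set, up to 3 called genes each way of each related list by adjusted p, the relatives Sphk1, S1pr1, Lrrtm2, Lrrtm3, Lrrtm4, Fxyd1, Fxyd6, Atp1b1 and Sgk1 whatever their result, and the 3 genes nearest in pattern to each. Genomic neighbours, Hlf values and marker genes were named beyond it. Background was the mean of control probe sets with 18 to 25 G or C bases.

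The groups share replicate numbers, and no label states a pairing. Deviations of same-numbered arrays from their group means correlated at 0.155, 0.138 and 0.413 at 8 h, all above the bound of 0.1. By that bound they would count as pairs there, but the reported fit has no pairing. Arrays of replicates 1 and 2 correlated as closely across numbers (0.163 and 0.138), so only replicate 3 stood apart. At 14 d same-numbered arrays correlated at 0.164, 0.068 and 0.463, and between controls at 0.163, 0.036 and 0.401, not all above that bound. The replicate number was used as a block only among the alternatives. With it Sgk1, S1pr1 and Lrrtm4 were called at 8 h, which they were not in the reported fit. Alternatives changed the probe set rule, filter, normalization, replicate block, arrays in the fit and array weights. Promoter windows and coordinates are those of RefSeq for GRCm38.p6.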

Additional observations from a re-analysis of the deposited data

Results flagged for a closer look

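For 9 genes related to or neighbouring the 6, the change after KA differed between 8 h and 14 d by limma's test of the difference of the changes. The arrays at 8 h and 14 d are separate sets, and the sex-linked and time labels described above apply to 8 h. Given as the change at 14 d minus that at 8 h, Sphk1 had -1.29 (SE 0.14, limma adjusted p = 2.73e-05), with 1.45 at 8 h and 0.17 at 14 d. Flrt2 had -0.92 (SE 0.13, limma adjusted p = 0.00047), with 0.67 and -0.25. Rps6ka3 had -0.89 (SE 0.13, limma adjusted p = 0.00047), with 1.06 and 0.17. Adgrl3 had -0.68 (SE 0.18, limma adjusted p = 0.032), and Pak6, the neighbour of Ankrd63, had -0.54 (SE 0.13, limma adjusted p = 0.027).

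The difference was positive in the other 4. Plpp3 had 0.82 (SE 0.13, limma adjusted p = 0.00094), with -0.51 at 8 h and 0.31 at 14 d. Fxyd1, the neighbour of Fxyd7, had 0.78 (SE 0.19, limma adjusted p = 0.022), with -0.17 and 0.61. Dbp, which overlaps Sphk2, had 0.74 (SE 0.21, limma adjusted p = 0.049), with -0.97 and -0.23, and Cers1 had 0.52 (SE 0.13, limma adjusted p = 0.031), with -0.23 and 0.29. Dbp and Cers1 were therefore among the calls nearest to the threshold of 0.05, together with Adgrl3 and Pak6.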

How the results depend on the processing

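The median change of the 6 genes at 14 d, -0.78, was -0.61 when a gene's probe sets were averaged, -0.74 with cyclic loess, -0.72 with array weights (which did not converge), -0.72 without the third array of each group and -0.81 to -0.64 with 1 array left out at a time. At 8 h that median, -0.80, stayed between -0.93 and -0.65. With the mean of probe sets, Sphk2 read -0.85 and Ccdc177 -1.08 at 8 h and Rskr -0.44 at 14 d. Rskr at 8 h lay between -0.20 and 0.02, on both sides of 0.

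Genes called at 8 h, 2420, numbered 3673 with every probe set tested and 1659 to 2748 with 1 array left out. Genes called at 14 d, 354, numbered 599 with the replicate number as a block, 2099 with array weights and 196 to 457 with 1 array left out (196 without control 14 d replicate 2, 211 without replicate 3 and 228 without KA 14 d replicate 1). Genes called between controls, 249, numbered 570 with the replicate number as a block, 543 in a fit of only those groups, 1336 with array weights and 86 to 421 with 1 array left out (86 and 127 without control 8 h replicates 1 and 2, 87, 92 and 105 without control 14 d replicates 1, 2 and 3, and 421 and 411 without KA 14 d replicates 2 and 3). The causes were not tested.

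Values that changed sign were small. Between controls, Sphk2 read 0.0244 with the mean of probe sets, and Ankrd63 ranged from -0.0541 to 0.129 with 1 array left out. At 8 h, Lrrtm3 read 0.0186 with cyclic loess, 0.0421 without the third arrays and -0.129 to 0.067 with 1 array left out, and Fxyd1 ranged from -0.335 to 0.0047. At 14 d, Lrrtm3 ranged from -0.0235 to 0.176, Sgk1 from -0.0243 to 0.482, Atp1b1 from -0.0967 to 0.0196 and Fxyd5 from -0.0631 to 0.13 with 1 array left out. With cyclic loess Atp1b1 read 0.0182 at 14 d, and with array weights Atp1b1 read 0.00060, Fxyd6 0.0442 and Fxyd5 -0.14. Without the third arrays, Sgk1 read -0.0052 and Pak6 -0.0046 at 14 d. With 3 arrays a group, and the KA 14 d arrays of Rskr at background, small changes in dim genes could not be measured.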

Other observations

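Hlf, the gene nearest in pattern to both Ankrd63 and Fxyd7, and Dbp, which overlaps Sphk2, belong with Tef to the PAR bZIP transcription factors, which bind the D-box and are under circadian control. These genes and Nfil3, a repressor that binds the same motif, were looked at after the values of Hlf and Dbp were seen. Hlf was picked for its likeness, so its values, 0.71 lower in KA at 8 h and 0.67 lower at 14 d, are a description with no test. At 8 h, Dbp fell by 0.97 (limma adjusted p = 0.00027) and Tef fell by 0.45 (SE 0.08, limma adjusted p = 0.0016). For both, no KA array overlapped the controls. Nfil3 rose at 8 h by 3.42 (SE 0.16, limma adjusted p = 1.71e-09).

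At 14 d, Tef differed by -0.22 (limma adjusted p = 0.26), Dbp by -0.23 and Nfil3 by 0.28 (limma adjusted p = 0.53). Among the windows of 4 of the 6 genes, the D-box letters stood only in that of Rskr. The labels do not give the time of day at which tissue was collected. Whether these factors take part in the changes of the 6 genes was not tested.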
